A study of Mus musculus with 16 samples.

Results

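Motor proteins turn ATP into movement along the cytoskeleton. Most kinesins walk along microtubules in the direction opposite to cytoplasmic dynein, and both carry vesicles and organelles. Axonemal dyneins bend motile cilia, and unconventional myosins work on actin filaments. In hepatocytes such motors sort membrane proteins between the sinusoidal and the bile canalicular surfaces and move lipid droplets, lysosomes and lipoprotein cargo. The transcripts of 34 motor genes are described here by where they carried N4-acetylcytidine (ac4C), a modified cytidine made by the enzyme NAT10, in the livers of diabetic and lean mice. A motor gene was included if its symbol begins with Kif or Myo and a digit, or with Dnah, Dnal, Dync or Dynll, or is one of the kinesin light chain genes, and if it had an ac4C peak in at least 1 list. Genes that the deposited annotation places in the endocytosis or tight junction pathway were left out, which removed Kif5a and Kif5b. The 34 genes were drawn from 8602 genes with a peak in any list.

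Acetylated RNA fragments were immunoprecipitated from livers of male mice and sequenced. One group had db/db as its strain label, mice without a working leptin receptor that become obese and diabetic, and the other was lean C57BL/6. The labels give no age and no treatment. The 8 peak lists were analysed, 4 db/db (db1, db2, db4 and db5) and 4 lean (C5 to C8). The labels do not say whether each list came from a separate animal. There were 8212 to 9754 peaks in the db/db lists and 7583 to 8503 in the lean lists. A peak is an interval in which the authors' caller found the immunoprecipitate enriched, and its fold is the authors' enrichment over background. The authors' lists gave 99.2% of the peaks an FDR of 100%, and no call is filtered on it here. Folds are set side by side as each list's own values and were not tested between lists. A gene without a peak is one for which no peak was reported, and transcript levels and read depth were not used here. In bulk liver, fewer cells of a type and less RNA per cell cannot be told apart.

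The 34 genes held 662 peaks of 68356, and these merged into 218 regions wherever peaks of different lists shared at least 1 bp. The RefSeq table used here lists 94 protein-coding genes with such names, of which 36 had a peak when Kif5a and Kif5b are counted. Among the 11 mitotic kinesin genes, which build and pull the spindle (Kif11, Kif23 and others), 0 had a peak in any list. Of 18 axonemal dynein genes 3 had one. A peak was found in 7 of 9 cytoplasmic dynein genes, 5 of 6 cargo kinesin genes of the Kif1, Kif13 and Kif16 families, and 12 of 25 myosin genes. The share of all RefSeq protein-coding genes with a peak was not counted. Whether any of these families lay above or below it is therefore not known. Cycling cell markers had a peak in 2 of 10 genes (0 to 2 per list). Ccna2 had one in 2 db/db and 3 lean lists and Cdk1 in 0 and 1, with Mki67, Top2a and Plk1 at none. Motile cilia markers had one in 0 of 12. Hepatocyte markers had a peak in 3 of 10 (0 to 2 per db/db list, 0 to 1 per lean list), namely Hnf4a in 3 db/db and 1 lean lists, Cps1 in 2 and 0 and Fgb in 1 and 0, with Alb, Ttr and Apoa1 at none. The tissue label therefore could not be checked from these markers. Markers of other liver cells went both ways. In the cholangiocyte list 5 of 6 genes had a peak (1 to 4 per db/db list, 1 to 2 per lean list), with Cdh1 in 0 db/db and 4 lean lists, Epcam and Spp1 in 2 and 0, Krt19 in 1 and 0, Sox9 in 4 and 3, and Krt7 at none. In the macrophage list 3 of 5 did (1 per db/db list, 1 to 2 per lean list), with Timd4 in 0 and 4, Marco in 4 and 2, Clec4f in 0 and 1, and Adgre1 and Cd68 at none. In the endothelial and stellate list 7 of 7 did (2 to 6 and 2 to 3), with Des in 3 and 0, Stab1 in 3 and 1, Rgs5 in 2 and 0, Pecam1 in 2 and 1, Lrat in 1 and 0, Lyve1 in 1 and 3 and Stab2 in 4 and 4. Their part in the motor gene results was not tested.

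**Figure D1:**
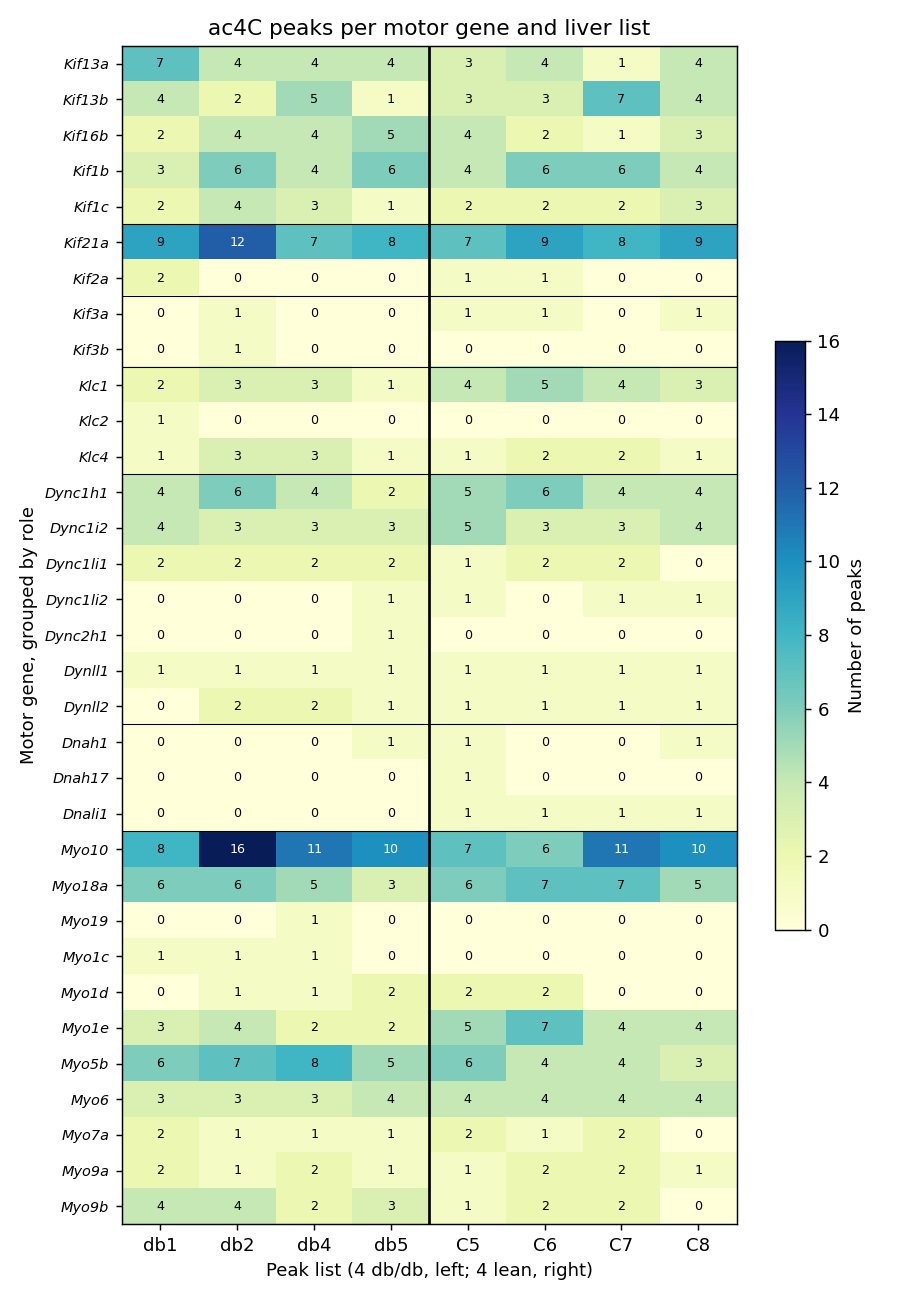
Number of ac4C peaks in each of 33 motor genes (rows, grouped by role) in each of the 8 peak lists (columns), by colour and printed value. Myo10 and Kif21a have the highest numbers in most lists, and the kinesins and myosins in the middle of the scale have peaks on both sides of the line between db/db and lean.

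A peak was found in all 8 lists in 18 of the 34 motor genes, against 19.8% of all genes with a peak. Motor genes are long, with a median span of 67.0 kb against 28.5 kb for all genes with a peak. Among genes of at least 50 kb, 14 of 21 motor genes and 28.3% of all 2658 had a peak in every list. These shares are a description and were not tested against each other. Of the 218 motor gene regions, 18 (8.26%) were called in all 8 lists, against 6.21% of all 25437 regions. Another 88 (40.4%) were called in 1 list only, against 45% of all regions. Motor gene peaks had a median fold of 4.09 and a median width of 170 bp, and all peaks had 4.07 and 183 bp.

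Peaks over the annotated start of a transcript can be shown with their sequence, because the RefSeq start windows give the first transcribed bases. Such windows were at hand for 27 of the 34 genes. A peak in any list overlapped the first 50 transcribed bases in 13 of the 27, against 46.2% of 6620 genes. The first 30 transcribed bases of 8 of them are printed, the kinesin and dynein starts called in at least 5 lists. They lie at chr13:46929689-46929718 (Kif13a, minus strand), chr2:142901435-142901464 (Kif16b, minus), chr15:91049922-91049951 (Kif21a, minus), chr11:70700548-70700577 (Kif1c, plus), chr12:111758868-111758897 (Klc1, plus), chr2:71211946-71211975 (Dync1i2, plus), chr9:114688831-114688860 (Dync1li1, plus) and chr12:110601395-110601424 (Dync1h1, plus), all in GRCm38.p6, which is the mm10 assembly of the peaks. Capitals mark the spaced cytidines of a match to CNNCNNCNNCNN, a repeat reported around ac4C, anywhere in the first 50 bases and on the gene's own strand. Overlapping matches are marked together, and a match may run past the printed stretch.
Kif13a: ggcggccgcgctcggggggcgcgCggCtgC
Kif16b: gggggcgcgggcacgggcacagtcgctgga
Kif21a: accggacCggCcaCggCtgacgcagggcag
Kif1c: ttCtgCtgCcgCccCcggggcgcgatcCgc
Klc1: gCggCgcCggCgaCgcCattttcggcggcg
Dync1i2: gtagCggCcgCcgCccatccctctttgtgt
Dync1li1: cgccgcttcgttcttccagccctgtcagga
Dync1h1: ggtggctgcagccagcgggcggggcggggc
The repeat was found in 8 of 14 motor gene windows with a start peak, in 4 of 21 without one and in 21.1% of all 32851 windows. The share over all windows was not split by start peak, and some genes have more than 1 window. Median cytidine content was 31% in motor gene windows with a start peak, 28% in those without and 26% in all windows. Whether the repeat goes with start peaks was not tested. Its reverse complement was in 14 of the 35 motor gene windows and in 29.0% of all windows. Kif13a had 6 overlapping matches in its first 50 bases and Kif16b 1, which lies beyond the printed bases. Dync1li1 and Dync1h1 had no match in theirs. A match describes the letters of the window and does not show which cytidine was acetylated.

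The starts of 2 cargo kinesins were called mainly in db/db livers. Kif13a, which carries endosomal cargo to the cell surface, had a start region at chr13:46929567-46929718. Its folds were 13.63, 13.02, 10.55 and 7.73 in db1, db2, db4 and db5, and 4.88 in C6, with no peak in C5, C7 or C8. Kif16b, a motor of early endosomes, had a start region at chr2:142901325-142901531, at folds of 4.9, 6.91, 3.92 and 4.26 in the db/db lists and 3.4 in C8. Again 4 db/db lists and 1 lean list held the call. A start peak in 3 or more lists of db/db and no more than 1 of lean mice was seen in 2 of 27 motor genes and in 2.75% of all genes, and the reverse in 0 of 27 and 3.58%. The RefSeq starts of Dync1i2, Klc1, Kif21a, Myo10, Myo18a, Kif1c, Dync1h1 and Dync1li1 were called in both groups, in 5 to 8 lists each. Those of Kif1b, Kif2a and Myo19 were called in 1 db/db list each, db2, db1 and db4 in that order, and in no lean list. Of the 13 RefSeq starts with a peak, only that of Dync1i2 was called in all 8. The Myo18a start counted here lies 13995 bp inside the annotated gene. A Myo18a region at the gene's outer bound, chr11:77763246-77763379, was called in all 8 lists, but no start window covers it.

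**Figure D2:**
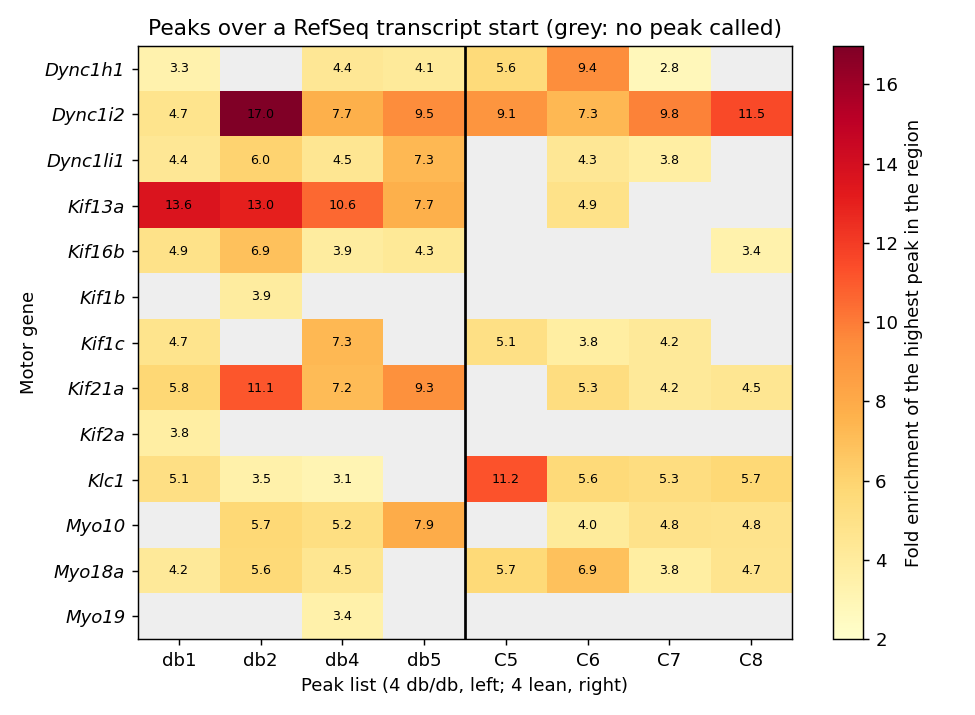
Fold enrichment (linear, colour and printed value) of the region over a RefSeq transcript start for the 13 motor genes with such a peak, in each of the 8 lists; grey cells had no peak. Kif13a and Kif16b are filled in all 4 db/db lists and in 1 lean list each, and Dync1i2 is filled throughout.

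Kinesin heavy and light chains were represented by 12 genes, with 33.25 ± 5.32 peaks per db/db list and 32.0 ± 2.16 per lean list (SD, n = 4 each). Most kinesins move towards the growing end of microtubules, and the light chains couple some of them to cargo. Kif13a held 3 of the 6 motor gene regions that were called in all 4 lists of 1 group and no list of the other. It had 7, 4, 4 and 4 peaks in the db/db lists and 3, 4, 1 and 4 in the lean lists, so the numbers overlapped. A region at chr13:46778894-46778993 was called in all 4 db/db lists at folds of 5.11, 3.46, 4.74 and 4.58 and in no lean list. A further one, chr13:46785246-46785392, had folds of 2.73, 3.19, 2.79 and 3.86 in db/db lists only. Another Kif13a region, chr13:46815210-46815422, had the opposite pattern, with folds of 3.29, 3.25, 3.13 and 2.41 in C5 to C8 and no db/db call. Near the far end of the gene, chr13:46752081-46752955 was called in C5, C6 and C8 only, at folds of 3.9, 3.72 and 3.09. The lists give no strand, and exon and intron annotation was not used here.

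Kif1b, a kinesin that carries mitochondria and synaptic vesicle precursors in neurons, had 3, 6, 4 and 6 peaks in the db/db lists and 4, 6, 6 and 4 in the lean lists. Its region at chr4:149226263-149226356 had folds of 7.1, 5.73, 6.82 and 8.08 in db1, db2, db4 and db5 and was not called in any lean list. The authors' scores of these peaks, -10 times log10 of p, were 338.6, 235.31, 272.73 and 326.87. The median score of all peaks was 30.7. Another Kif1b region, chr4:149245542-149245722, was called in all 8 lists at folds of 4.24, 5.15, 6.42 and 5.11 in db/db and 4.13, 3.11, 4.22 and 5.5 in lean livers. Of the 13 Kif1b regions, 3 were called in db/db lists only, the other two of them in 1 list each, and 5 in lean lists only, each in 1 or 2 lists. Kif16b had 2, 4, 4 and 5 peaks in db/db and 4, 2, 1 and 3 in lean lists. Its region from 142862427 to 142862540 had folds of 3.66, 6.05, 3.24 and 2.87 in the db/db lists and none in the lean lists. A different Kif16b region, from 142739523 to 142739611, was called in C5, C6 and C8 only.

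**Figure D3:**
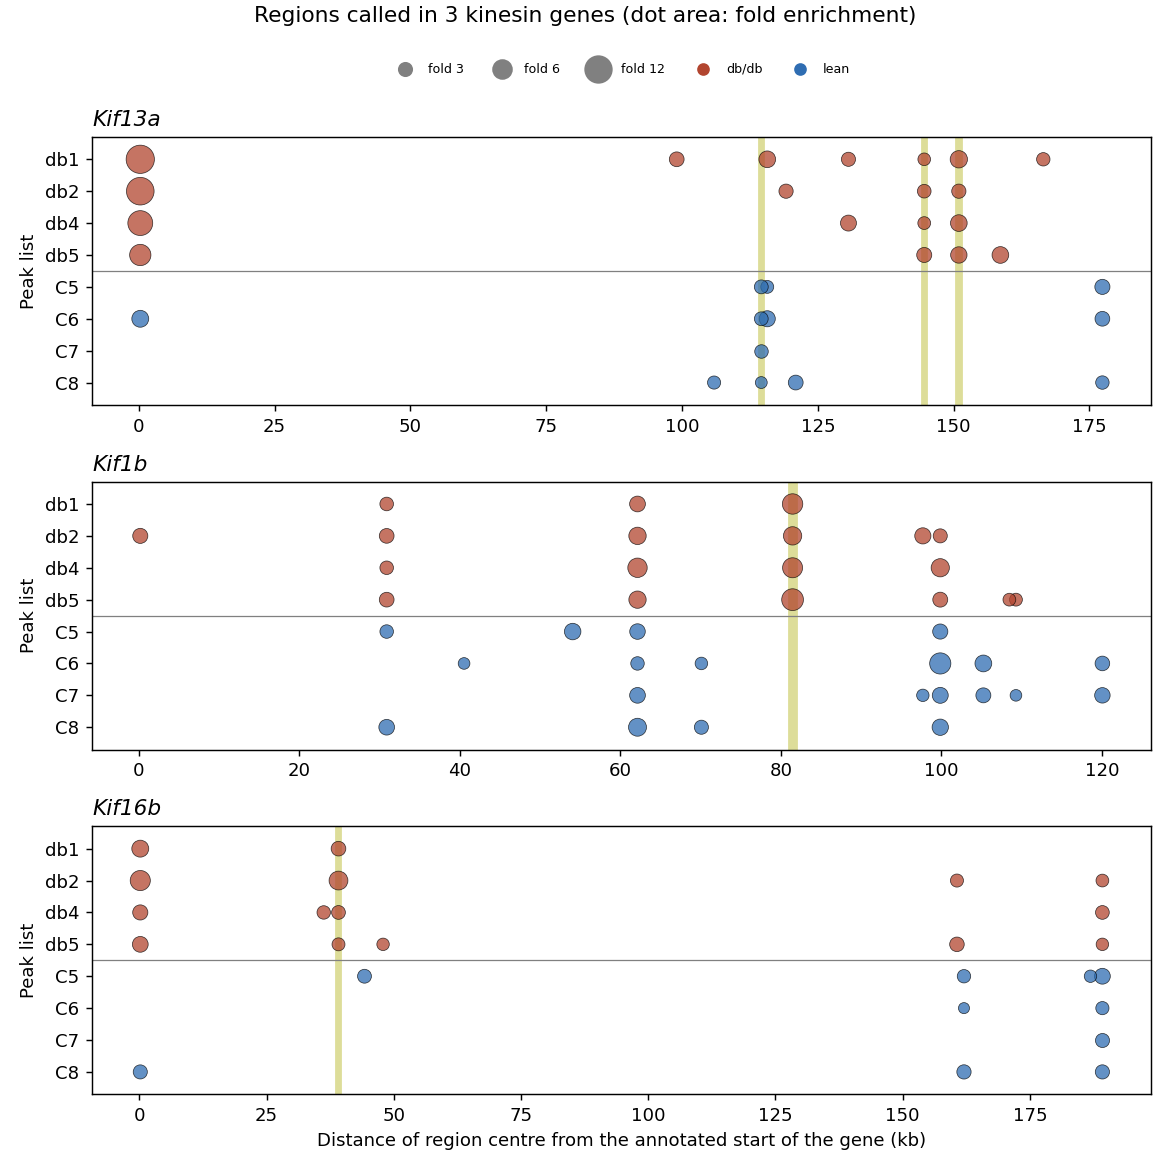
Positions of called regions in Kif13a, Kif1b and Kif16b, as distance of the region centre from the annotated start of the gene in kb, for each of the 8 lists (red db/db, blue lean; dot area proportional to fold). Shaded bands mark regions called in all 4 lists of 1 group and none of the other: in Kif13a 2 are filled by db/db and 1 by lean lists, and in Kif1b and Kif16b the single band is filled by db/db lists.

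Kif21a, a kinesin that steadies the growing ends of microtubules, had the most peaks of the kinesins, 9, 12, 7 and 8 peaks in db/db lists and 7, 9, 8 and 9 in lean lists. Of its 14 regions 4 were called in all 8 lists. The one at chr15:90980795-90980998 had folds of 10.49, 11.39, 9.29 and 11.61 in db/db livers and 13.31, 7.99, 11.19 and 11.82 in lean livers, which overlapped. The folds of a second one, chr15:90968357-90968571, overlapped as well, at 4.31, 4.2, 3.61 and 3.16 in db/db and 3.27, 3.82, 3.72 and 2.78 in lean livers. Those of the other two did not. At chr15:90967196-90967390 they were 5.06, 6.07, 3.97 and 4.07 in db/db and 3.63, 3.64, 3.55 and 3.24 in lean livers, and at chr15:90970679-90970878 the lean livers were higher, at 6.48, 7.63, 10.33 and 6.8 against 5.4, 6.31, 5.49 and 4.82. The order was thus opposite in these 2 regions of 1 gene. How often folds separate the groups among all regions called in all 8 lists was not counted, so these 2 are description only. Kif1c, which moves vesicles and integrins, was called in all 8 lists at a region at chr11:70724822-70725008, at folds of 6.3, 9.22, 6.81 and 8.05 in db/db and 4.24, 7.62, 5.59 and 5.92 in lean livers. Kif13b, a relative of Kif13a, had 4, 2, 5 and 1 peaks in db/db and 3, 3, 7 and 4 in lean lists. Its region at chr14:64736148-64736360 was called in C5, C7 and C8 alone. The remaining kinesins were called sporadically, with Kif3a, a subunit of the ciliary kinesin-2, in 1 db/db and 3 lean lists, Kif2a, which takes microtubules apart, in 1 and 2, and Kif3b and Klc2 in 1 db/db list each.

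The light chain gene Klc1 had 2, 3, 3 and 1 peaks in the db/db lists and 4, 5, 4 and 3 in the lean lists, which touched at 3 peaks. The means of 2.25 ± 0.957 and 4.0 ± 0.816 (n = 4 each) differed by -1.75 peaks (exact permutation p = 0.0857, adjusted p = 1). The lean livers added calls at chr12:111774353-111774583, present in 4 lean lists and db4, and from 111781652 to 111781825, present in C5, C6 and C7 only. The Klc1 region from 111772319 to 111772580 was called in all 8 lists, at folds of 4.19, 5.05, 6.21 and 3.7 in db/db and 7.08, 9.06, 4.64 and 7.76 in lean livers. Klc4, a less studied light chain, had a region at chr17:46642114-46642344 in all 8 lists, at folds of 5.59, 6.11, 5.41 and 8.97 in db/db and 10.78, 13.72, 8.02 and 6.39 in lean livers. The groups overlapped in both genes.

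Cytoplasmic dynein, the motor that carries cargo towards the cell centre, had 12.0 ± 1.41 peaks per db/db list and 12.5 ± 1.29 per lean list (n = 4 each) in 7 genes. Its highest folds were in the genes of a light and an intermediate chain. Dynll1, the LC8 light chain that also serves many other complexes as a dimerisation hub, had 1 region, at chr5:115300513-115300912, 78 bp inside the annotated start of the gene. Its folds were 16.67, 13.53, 11.5 and 12.96 in db/db and 25.4, 15.5, 13.44 and 11.35 in lean livers. C5 held the highest value, and the other 7 lists lay together. Dync1i2, the intermediate chain that links dynein to dynactin, had folds of 12.35, 20.67, 14.8 and 13.78 in db/db and 11.76, 8.5, 11.05 and 14.81 in lean livers at chr2:71214439-71214555. Its start region, 71211834 to 71212074, was at 4.73, 16.97, 7.68 and 9.47 and at 9.05, 7.28, 9.79 and 11.49. Neither region separated the groups.

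The dynein heavy chain gene Dync1h1, which encodes the motor domain itself, had 4, 6, 4 and 2 peaks in db/db and 5, 6, 4 and 4 in lean lists, spread over 11 regions of which 0 were called in all lists. Its region at chr12:110651491-110651664 was called in 4 lean lists, at folds of 2.4, 3.2, 4.3 and 4.96, and in db2 at 2.79. The region at its start overlaps the gene model Gm35558, and the lists give no strand to separate them, as at the start of Kif21a with Gm52215. The 2 light intermediate chains bind cargo adaptors. Dync1li1 had 2 peaks in every db/db list and 1, 2, 2 and 0 in C5 to C8. Dync1li2 had 1 peak in db5 and 1 each in C5, C7 and C8, and the lean ones lay at chr8:104442695-104443047, 3 bp from one annotated end of the gene, at folds of 5.66, 3.15 and 4.62. Dynll2 was called in 3 db/db and 4 lean lists, and Dync2h1, the heavy chain of the dynein that works inside cilia, in db5 alone. The exact permutation p for the number of peaks was 0.429 for Dync1li1 and 0.486 for Dync1li2, with adjusted p of 1 for both.

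Among the axonemal dyneins, which bend motile cilia, Dnali1 was called in all 4 lean lists and no db/db list, as were 0.674% of all genes. Its region, at chr4:125055338-125055806, had folds of 4.51, 8.62, 7.47 and 5.78 in C5 to C8 (exact permutation p = 0.0286, the smallest the design allows, adjusted p = 0.934). It was the only one of the 34 genes with an unadjusted p under 0.05 in the test of peak numbers, which 1.16% of all genes passed with more peaks in lean and 1.89% with more in db/db livers. The region covers the last part of the gene, which lies on the minus strand, and 45 of its 469 bp also fall in the end of Gnl2, a nucleolar GTPase gene. Gnl2 itself had 1, 1, 0 and 1 peaks in db/db and 3, 1, 3 and 1 in lean lists. Whether the reads came from Dnali1 was not tested. The 2 heavy chain genes were called rarely, Dnah1 in db5, C5 and C8 and Dnah17 in C5, at folds of at most 2.68. Motile cilia markers had a peak in 0 of 12 genes, while 10 of 20 genes of dynein arm assembly and intraflagellar transport had one in some list.

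The 12 unconventional myosins held 295 of the 662 peaks, with 39.25 ± 6.5 per db/db list and 34.5 ± 4.36 per lean list (n = 4 each). C8 had 28 and the other lean lists 36 or 37. The motor gene that ranked highest by fold within the lists was Myo6, the myosin that walks towards the inner ends of actin filaments and works in endocytosis. At chr9:80288008-80288216 its folds were 15.12, 12.62, 17.13 and 19.4 in db/db and 15.98, 14.1, 15.11 and 20.61 in lean livers. The nearby Myo6 region from 80289866 to 80289944 had 15.81, 6.96, 17.38 and 15.19 in db/db and 18.25, 15.86, 18.42 and 16.93 in lean livers. Apart from the db2 value of the second region, the 8 lists were close together. By the mean percentile of its best fold within each list Myo6 stood at 97.9, ahead of Dynll1 (96.7), Dync1i2 (95.3), Kif21a (94.6) and Myo18a (92.5). These are the 5 highest of the motor genes.

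**Figure D4:**
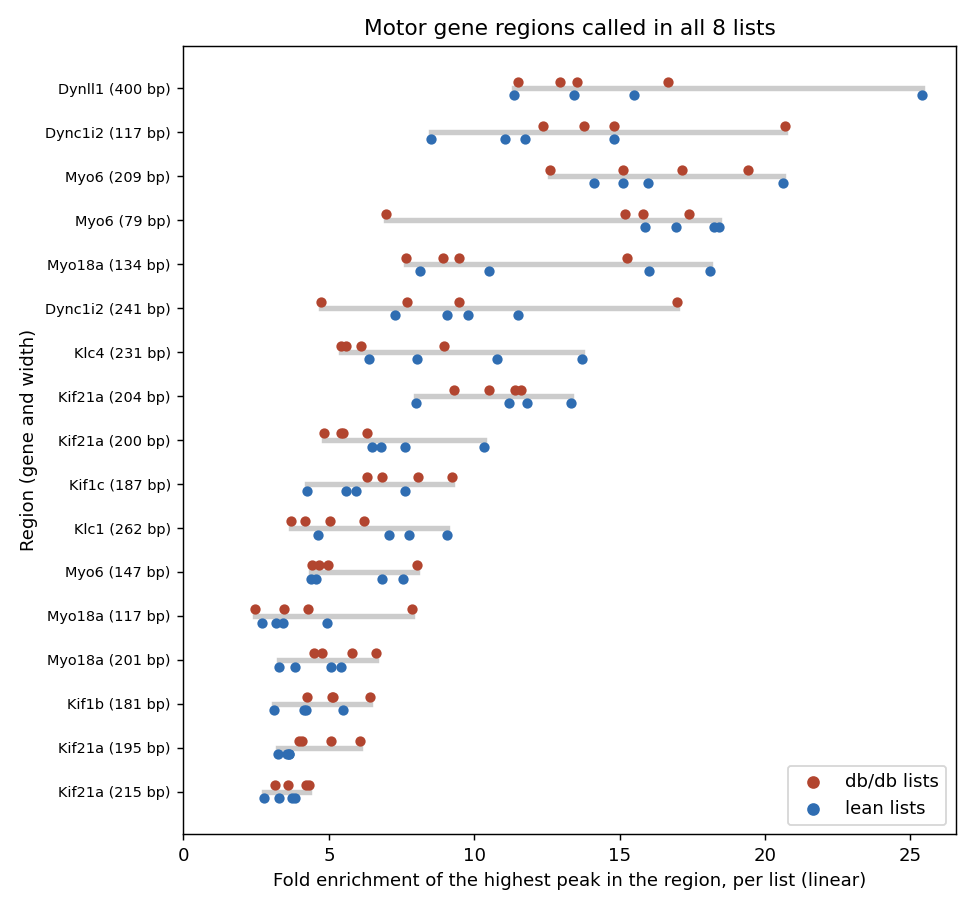
Fold enrichment (linear axis from 0) of 17 motor gene regions called in all 8 lists, 1 row per region, with 4 db/db (red) and 4 lean (blue) values each and a grey bar over the whole range. Dynll1, Dync1i2 and Myo6 lie at the top, with values reaching 25.4, and red and blue points overlap in most rows.

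Myo18a, a myosin that shapes the Golgi, had 6, 6, 5 and 3 peaks in db/db and 6, 7, 7 and 5 in lean lists, with 3 regions called in all lists. The one at chr11:77763246-77763379 begins 6 bp inside the annotated gene bounds and had folds of 9.48, 7.64, 15.26 and 8.93 in db/db and 16.02, 18.11, 10.51 and 8.13 in lean livers. Myo10, which drives cargo to the tips of filopodia, had the most peaks and regions of any motor gene, 8, 16, 11 and 10 peaks in db/db and 7, 6, 11 and 10 in lean lists over 23 regions. None of its regions was common to all lists, and 3 were called in 7. Of these the one with the highest folds, chr15:25779583-25779810, had values of 11, 6.46, 11.54 and 9.56 in db/db and 7.57, 9.31 and 6.51 in C6, C7 and C8. Myo10 regions from 25701562 to 25701950 and from 25795683 to 25795776 were called in 3 db/db lists and no lean list.

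Other myosins had unequal mean numbers of peaks in the groups, in both directions, and none of these differences passed the test after adjustment. Myo5b, the recycling endosome motor needed for the bile canalicular surface, had 6, 7, 8 and 5 peaks in db/db and 6, 4, 4 and 3 in lean lists. Its mean numbers were 6.5 ± 1.29 and 4.25 ± 1.26 (n = 4 each, exact permutation p = 0.0857, adjusted p = 1). Myo9b had 4, 4, 2 and 3 in db/db and 1, 2, 2 and 0 in lean lists, with means of 3.25 ± 0.957 and 1.25 ± 0.957 (n = 4 each, exact permutation p = 0.0857, adjusted p = 1). Myo1e, an endocytic myosin, ran the other way, with 3, 4, 2 and 2 in db/db and 5, 7, 4 and 4 in lean lists, with means of 2.75 ± 0.957 and 5.0 ± 1.41 (n = 4 each, exact permutation p = 0.0857, adjusted p = 1). In all 3 genes the 2 groups touched or overlapped. Myo1c, which helps bring glucose transporters to the membrane in fat cells, was called in db1, db2 and db4 and in no lean list. Its region at chr11:75651509-75651665 had folds of 7.15, 4.79 and 3.1. Myo6 (3, 3, 3 and 4 peaks against 4 in each lean list), Myo7a and Myo1d showed smaller or no differences, and Myo19 was called in db4 alone. One Myo1e region, at chr9:70367616-70367730, was called in 4 lean lists and db5. Myo9a had 2, 1, 2 and 1 peaks in db/db and 1, 2, 2 and 1 in lean lists. Its region at chr9:59870436-59872031 was called in 7 lists, at folds of 6.81, 3.72 and 4.34 in db1, db2 and db5 and 3.95, 3.74, 5.3 and 5.17 in C5 to C8, and its other 4 regions in 1 list each. That region also overlaps the gene model Gm20275, without strand in the lists to separate them.

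Over all 34 genes the groups overlapped in their totals. Motor genes with a peak numbered 24, 26, 25 and 26 in the db/db lists and 29, 26, 24 and 23 in the lean lists, means of 25.25 ± 0.957 and 25.5 ± 2.65 (n = 4 each). Their peaks numbered 80, 102, 85 and 72 in db/db and 83, 86, 81 and 73 in lean lists. Without db1 or C5 the mean difference in genes turned from -0.25 to 0.167 or 0.917, and without db2 the difference in peaks turned from 4 to -1.75. As a share of each list, motor peaks made up 0.871% to 1.10% in db/db and 0.963% to 1.07% in lean livers. More peaks in db/db livers were found in 16 genes (47.1%), more in lean livers in 13 (38.2%) and equal numbers in 5, against 49.1% and 36.9% of all genes for the first 2. The median difference was 0 peaks, among motor genes and among all genes. A peak in 3 or 4 db/db lists with 1 or no lean list was found in 1 motor gene, Myo1c, against 7.16% of all genes. The first count was 2 without C5 or C6. It had to be 0 without db1, db2 or db4, the only db/db lists that called Myo1c. The opposite held for 3, Dnali1, Kif3a and Dync1li2, against 5.03%. It held for 1 without C5 or C8, which both Kif3a and Dync1li2 needed to reach 3 lean lists. By Fisher's exact test with Benjamini-Hochberg adjustment 0 of 8602 genes passed, and 139 (1.62%) had an unadjusted p under 0.05. Among them was 1 of the 34 motor genes, Dnali1. With 4 lists a group the smallest p a gene can reach in that test is 0.0286.

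At the level of regions, 13 of the 218 were called in 3 or 4 db/db lists with 1 or no lean list, 5.96% against 6.07% of all regions. Another 15 had the reverse pattern, 6.88% against 4.81%. Regions in all 4 db/db and no lean list numbered 4, in Kif13a (2), Kif1b and Kif16b, against 0.853% of all regions. Regions in all 4 lean and no db/db list numbered 2, in Kif13a and Dnali1, against 0.708%, and 5, 4 and 4 without C6, C7 and C8. With a list left out the rule asked only for the lists that remained, so that count could only stay or rise. Of these 6 regions, 5 lay in 3 cargo kinesin genes, Kif13a, Kif1b and Kif16b, which held 13, 13 and 9 of the 218 regions. The Kif1b region kept its 4 calls when peaks below a fold of 4 or below a score of 50 were dropped. Dnali1 kept 4 and 2, the first Kif13a region 3 and 1, and Kif16b 1 and 1. The other 2 Kif13a regions kept 0 under both filters. After Benjamini-Hochberg adjustment over 25437 regions 0 passed Fisher's exact test, and 397 (1.56%) had an unadjusted p under 0.05, among them these 6.

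Within the genes whose strand is known, 15.8% of 552 motor peaks had their centre in the first 0.1 of the gene's span and 7.07% from 0.9 of the span on. Over all genes 24.0% and 11.4% of 53602 peaks did. No correction for gene length was made, and the shares were not tested against each other.

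Partners of the motors were examined from lists of genes chosen for their role. The share of all RefSeq protein-coding genes with a peak was not counted, so the numbers with a peak in each list are description only. Of 28 dynein regulators and dynactin genes 18 had a peak, 8 to 13 in each db/db list and 9 to 12 in each lean list. The cargo adaptor genes Bicd2 and Hook3 and the dynactin genes Dctn2 and Dctn3 were called in all 8 lists. Actr1b leaned to db/db (3 against 1 lists), and Dctn6 (0 against 3) and Dynlrb1 (1 against 3) to lean livers. Of 14 kinesin adaptor genes 12 had a peak, 8 to 10 per db/db list and 6 to 8 per lean list, with Trak1, which ties kinesin to mitochondria, in all 8. Of 20 genes of dynein arm assembly and intraflagellar transport 10 had one. They numbered 3, 4, 9 and 5 in db1, db2, db4 and db5 and 4, 1, 2 and 1 in C5 to C8. The 9 were in db4, the longest list, with 9754 peaks. Over all genes, 4407 to 5046 had a peak per db/db list and 4071 to 4623 per lean list. The part of list length in these counts was not tested. Ift172, a subunit of the ciliary transport complex, was called in 4 db/db and 0 lean lists, as were 0.942% of all genes, and Dnaaf5 in 3 and 1. Of 13 myosin partner genes 8 had a peak, 6 to 8 and 6 to 7 per list, with the tropomyosin genes Tpm1, Tpm3 and Tpm4 in all 8 lists. Of 21 genes of tubulin and microtubule-binding proteins 14 had a peak, 9 to 12 and 8 to 10 per list. Map4, Map7 and Clip1 were called in all 8 and Mapre1 in 4 db/db and 0 lean lists, while 0 of Tuba1a, Tuba1b, Tuba1c and Tubb5 had a peak in any list. In each of these lists 0 genes passed Fisher's exact test after adjustment (adjusted p of 1 throughout).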

How the data were processed

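Peaks of immunoprecipitated liver RNA came from 8 deposited lists (4 db/db, 4 lean) out of a series of 16 samples (8 immunoprecipitates and 8 inputs). The submitters' processing notes name cutadapt 1.9.3, HISAT2 2.0.4 and the build mm10. Peaks carry MACS names per the file headers and rows; the caller's version, pooling and control are not given in the sources used here. The score in the deposited lists is -10 times log10 of p, and the fold enrichment deposited by the authors is a linear ratio. The false discovery rate was deposited in percent. The lowest fold was 2 and the lowest score 13.02. No read counts were used, so depth is unknown.

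Lists were assigned to groups by their names, not to numbered samples, since db5 and C5 to C8 are not among the sample titles, and C was taken as the lean control. The labels do not say that samples are separate animals, so p-values measure the spread between these lists. Starts were printed 1 higher than deposited, because 2127 peaks began 1 base below the annotated start of their gene and 70 at it. All 34 symbols matched RefSeq (GRCm38.p6). Presence per gene and per region was compared by Fisher's exact test, and the number of peaks per gene by exact permutation (two-sided, 70 arrangements). Both were adjusted by Benjamini-Hochberg over all genes or regions, and the procedures were tested on simulated data. Python 3.11.15 with scipy 1.17.1 was used. The members and lists were chosen with earlier results of these data known. A full account went to motor genes called in all 8 lists, to those differing by at least 3 lists, and to those holding a region of 1 group only; the 5 with the highest within-list percentile of fold were also named, and other motor genes by role. Results on some genes are not reported here, in the text or in the figures, though counts over the motor genes and lists include them.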

Additional observations from a re-analysis of the deposited data

Results flagged for a closer look

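Numbers of peaks in a group of 4 lists were examined where they spanned more than 1 peak. About 1 in 20 groups would stand out by chance if the values were continuous. That rate does not hold for tied counts. Where the other lists of a group tie, as for Kif13a and Kif2a below, any gap of more than 1 peak is flagged. The C8 list had 28 myosin peaks, apart from 36 or 37 in the other lean lists. It was also the shortest list, with 7583 peaks, and the part of list length in this value was not tested. The db1 list had 7 peaks in Kif13a, apart from 4 in each of the other db/db lists, and 2 in Kif2a, apart from 0 in each of them.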

How the results depend on the processing

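No paired analysis was possible because the lists carry names that do not match the numbered samples. The difference between db/db and lean lists in motor genes with a peak changed sign with the setting: -0.25 as reported, -1.5 with equal numbers of peaks per list, 0.25 at a fold of at least 4, 0.75 at a score of at least 50, 0.5 with only peaks above the pooled median score, and -1.08 to 0.917 leaving out each list, positive without db1 (0.167) and C5 (0.917). The difference in motor peaks per list, 4, turned to -3.75 with equal numbers of peaks per list and to -1.75 without db2 (range to 8.25). Motor genes in 3 or 4 db/db lists with 1 or no lean list numbered 1, and 3 at the fold, score and pooled score filters, 0 with equal numbers, 0 without db1, db2 or db4 and 2 without C5 or C6. The lean count of 3 was 1 at a score of at least 50 and without C5 or C8 (range 1 to 3). The rule of at least 3 lists was kept when a list was left out. A gene called in just 3 lists of its group thus dropped out without any of them. Genes in all lists fell from 18 to 10 and 9 at the fold and score filters, and stood at 18 to 21 leaving out each list. With a list left out, a gene needed a peak only in the lists that remained, so this gene count could only stay or rise. Group-specific regions of db/db livers, 4, fell to 1 at the fold filter (4 to 6 leaving out each list, a check added after the data were seen). Those of lean livers, 2, became 1 at the fold filter and with equal numbers, 0 at both score filters, and 5, 4 and 4 without C6, C7 and C8 (range 2 to 5). With a list left out, the region rule asked only for the lists that remained, so both region counts could only stay or rise. Filters leave fewer peaks; other causes were not tested. The difference between groups in the percentage of lists with a peak was recomputed for the 20 genes chosen for a full account. It moved by over 25 percentage points from its reported value in 4 of them at the fold filter, 7 at the score filter, 5 above the pooled median score and 0 with equal numbers.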
